A study of Mus musculus with 20 samples.

Results

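Gene expression in the epididymal fat pad was compared between male mice of the inbred strain C57BL6/J after 6 days on a high-fat diet and on normal chow (day 0). The comparison takes 4 high-fat day 6 libraries and 4 chow libraries out of 20 in the series, which also holds 4 each after 2, 4 and 14 days on the diet. It covers every gene that passed a filter on low counts, 15254 of 39179 gene IDs. The labels call the libraries biological replicates of the intact fat pad and do not say whether each came from 1 mouse, how old the mice were or which were handled together. The study's title names glucose uptake, insulin signalling and autophagy as its subjects, so the genes of those processes were set beside those of lipid metabolism, the matrix and the cell cycle.

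White fat takes up glucose when insulin, through its receptor and the kinase AKT, sends vesicles carrying the transporter GLUT4 to the adipocyte surface. Autophagy encloses cell contents in membranes built with LC3-type proteins and delivers them to the lysosome. A fat pad that grows on a fatty diet is known to hold enlarging adipocytes, dividing precursor and immune cells, and a collagen matrix that is rebuilt around them.

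Library totals were 25872484, 26809665, 11418864 and 32363044 counts on day 6, against 16667929, 8279454, 38832429 and 27553955 counts on chow. Levels are given as CPM, counts scaled to a common library total, which do not allow one gene to be set against another because genes differ in length. The adipocyte hormone gene Adipoq, a defining marker of the labelled tissue, had 3672, 4789, 3313 and 2038 CPM on day 6, against 2746, 4128, 4142 and 2509 CPM on chow. Chow replicate 4 stood apart by epithelial genes: Cuzd1, known from duct epithelium, had 80.1 CPM there and 0 to 0.116 CPM in the other chow libraries. The TMM factor that scales its library total was 1.17, against 0.94 to 1.04 in the other compared libraries, and a higher factor gives lower CPM. Day 6 replicate 4 stood apart by genes of dividing cells, given with those genes. In RNA of a whole tissue, fewer cells of a type and less RNA per cell cannot be told apart, here or in any result that follows.

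At an adjusted p under 0.05, 527 genes were called between day 6 and chow, 304 higher and 223 lower, which is 3.45% of the genes tested, 1.99% higher and 1.46% lower (edgeR quasi-likelihood test, Benjamini-Hochberg adjustment). For 1821 genes, 11.9% of those tested, the day 6 libraries did not overlap the chow libraries, and 406 of the called genes were among them. The rises were numerous and small, with a median log2 change of 0.60, and 68 of the 304 exceeded 1 on the log2 scale. Among the falls the median size was 1.33, and 142 of the 223 exceeded 1. The median log2 change of all genes was -0.01. With scaling by library size only it was -0.14, and 907 genes were called, 160 higher and 747 lower.

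The rises and falls rested on the libraries in different ways. Chow replicate 4 was the highest chow library for 162 of the 223 genes called lower, and for 15 of the 304 called higher. Without it 7 genes were called, 6 higher and 1 lower. All 304 rises kept their sign without it, at a median of 0.933 of their change, and all 304 had an unadjusted p under 0.05. Of the 223 falls 217 kept their sign, at a median of 0.756 of their change, 76 kept less than a 0.5 share of it, and 175 had an unadjusted p under 0.05. Both sets were chosen by a fit that shares all the remaining libraries, so kept signs and unadjusted p-values are no separate evidence for them. The count was 15 without day 6 replicate 3, 22 without day 6 replicate 4 and 27 without day 6 replicate 2, against 1343 without day 6 replicate 1 and 1138 without chow replicate 1. It was 293 without chow replicate 2 and 391 without chow replicate 3.

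**Figure D1:**
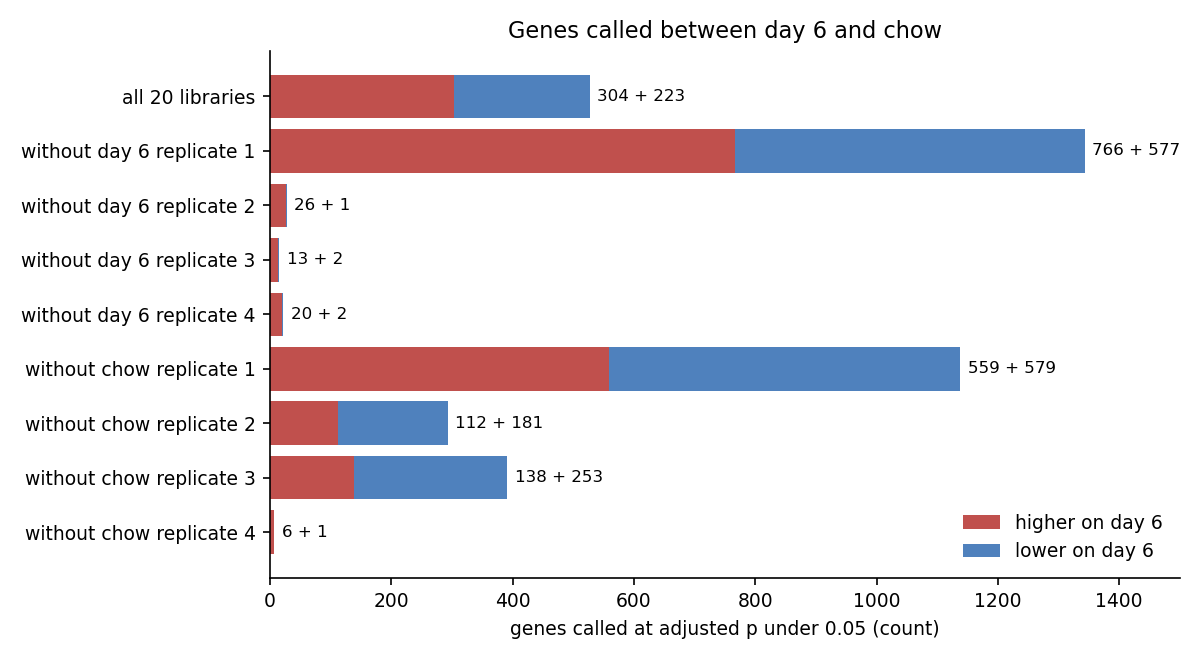
Genes called between day 6 and chow (horizontal axis, count at an adjusted p under 0.05) with all 20 libraries and after leaving out each compared library. Red bars are genes higher on day 6 and blue bars genes lower. The count ranges between 7 without chow replicate 4 and 1343 without day 6 replicate 1.

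A fit of only the 8 compared libraries, which estimates the spread with fewer samples, called 0 genes by the same edgeR test. Its lowest adjusted p was 0.0955, with 3596 genes at an unadjusted p under 0.05. DESeq2 on all libraries called 1180.

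Whichever of the 8 compared libraries was left out, 7 genes kept their call, 6 of them higher and 1 lower on day 6, and the 6 higher ones are described here. Krt79, a type II keratin known from the hair follicle and sebaceous duct of mouse skin, had 10.04, 19.2, 16.3 and 22.03 CPM on day 6, against 3.55, 5.58, 4.43 and 3.24 CPM on chow. Its log2 change was 2.04 ± 0.22 (SE; adjusted p = 3.41e-04 by edgeR quasi-likelihood and Benjamini-Hochberg). Trp53inp2, whose protein binds LC3-type proteins and moves to the autophagosome, had 1000.2, 1128, 1389.5 and 1800.5 CPM on day 6, against 473, 337, 367 and 422 CPM on chow. Each day 6 library lay above every chow library for both genes, and day 6 replicate 4 was the highest for both. Trp53inp2 changed by 1.73 ± 0.20 (SE; adjusted p = 5.70e-04 by edgeR quasi-likelihood and Benjamini-Hochberg). Krt79 and Trp53inp2 were also the 2 genes still called, at an adjusted p of 0.00670 each in the same edgeR test with Benjamini-Hochberg adjustment, when chow replicate 4 and day 6 replicate 4 were left out together.

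Trarg1, a protein of the insulin-responsive GLUT4 vesicle, had 502, 590.0, 654 and 624 CPM on day 6, against 372, 341, 359 and 278 CPM on chow. The lowest day 6 library was replicate 1 and the highest chow library was also replicate 1, with no overlap. Its log2 change was 0.81 ± 0.12 (SE; adjusted p = 0.00707 by edgeR quasi-likelihood and Benjamini-Hochberg). Ehd2, an ATPase at the neck of caveolae, the small membrane pits that are abundant in adipocytes, had 1505, 1975, 1914 and 1788 CPM on day 6, against 1255, 959, 1068 and 875 CPM on chow. Prr5, a subunit of the mTORC2 kinase complex that phosphorylates AKT, had 52.2, 50.2, 55.9 and 45.8 CPM on day 6, against 38.4, 27.8, 28.2 and 29.7 CPM on chow. Ehd2 changed by 0.79 ± 0.12 and Prr5 by 0.72 ± 0.11 (log2, SE; adjusted p = 0.00707 each by edgeR quasi-likelihood and Benjamini-Hochberg). D430019H16Rik had 107, 81.2, 129.8 and 108 CPM on day 6, against 55.95, 27.1, 34.8 and 45.4 CPM on chow, and changed by 1.38 ± 0.21 (SE; adjusted p = 0.00707 by edgeR quasi-likelihood and Benjamini-Hochberg). In these 3 genes the groups were again separate, and the highest chow value was that of replicate 1.

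**Figure D2:**
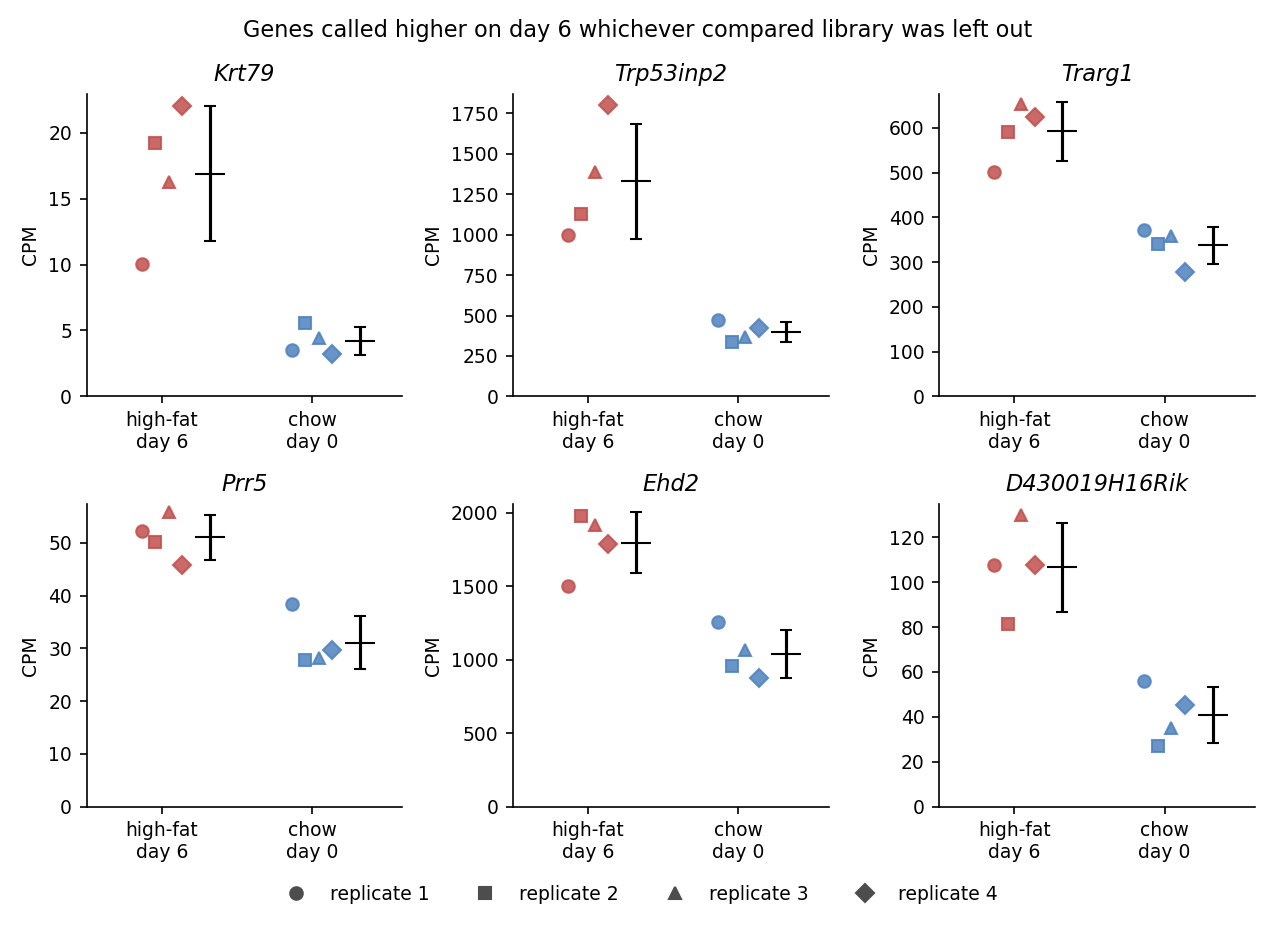
CPM of the 6 genes called higher whichever compared library was left out, high-fat day 6 libraries in red and chow libraries in blue. Points are libraries, the marker shape gives the replicate number, and black marks with bars are the mean and SD of 4 libraries. The groups do not overlap in any panel, and all day 6 libraries lie above all chow libraries.

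Fads3, of the fatty acid desaturase family, had 508, 732, 709.7 and 771 CPM on day 6, against 402, 385, 316 and 364 CPM on chow. Oxct1, which starts the use of ketone bodies as fuel, had 399, 537, 488 and 538 CPM on day 6, against 258, 283, 301 and 219 CPM on chow. Ramp2, the partner of the adrenomedullin receptor on endothelial cells, had 70.3, 67.8, 75.3 and 103 CPM on day 6, against 40.1, 40.7, 44.3 and 35.9 CPM on chow. These 3 and the GABA transporter gene Slc6a13 kept their call in 7 of the 8 fits. Their log2 changes were 0.89 ± 0.14 for Fads3, 0.89 ± 0.14 for Oxct1, 0.98 ± 0.16 for Ramp2 and 0.86 ± 0.14 for Slc6a13. The 1 fit that lost them was without chow replicate 4, at adjusted p = 0.0553, 0.0687, 0.0686 and 0.0689 in that order (edgeR quasi-likelihood test, Benjamini-Hochberg adjustment). Next by p came Sfxn5, a mitochondrial carrier gene (0.64 ± 0.11), Alas1, the first enzyme of heme synthesis (0.92 ± 0.16), and Dpt, a matrix protein gene (0.91 ± 0.16).

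Of 19 measured genes of GLUT4 vesicles and glucose uptake 2 rose, Trarg1 and the vesicle motor gene Myo1c, and 0 fell. Over all genes tested 1.99% were called higher and 1.46% lower. The called members of this list and of each list that follows are to be read beside these shares. Myo1c had 558, 684, 699 and 607 CPM on day 6, against 506, 463, 443 and 396 CPM on chow, and changed by 0.49 ± 0.10 (SE; adjusted p = 0.0280 by edgeR quasi-likelihood and Benjamini-Hochberg). Slc2a4, the gene of GLUT4 itself, had 209.6, 285, 246 and 176 CPM on day 6, against 275, 190.4, 224 and 185 CPM on chow. Its libraries overlapped, and its log2 change of 0.07 ± 0.17 did not pass the test (adjusted p = 0.845 by edgeR quasi-likelihood and Benjamini-Hochberg). The list median was 0.04, and -0.09 with library size only. The list of insulin signalling to AKT and mTOR does not hold Prr5, which was called higher. Of its 27 genes 0 were called by edgeR or DESeq2 and 3 by edgeR with library size only, 7 had an unadjusted p under 0.05, and the median was 0.07, or -0.06 with library size only. For comparison, 24.4% of all genes had an unadjusted p under 0.05. The insulin receptor gene Insr averaged 197 ± 19.2 CPM on day 6 and 242 ± 30.5 CPM on chow (SD, n = 4 each), the adaptor gene Irs1 43.8 ± 12.7 CPM on day 6 and 45.4 ± 11.3 CPM on chow and the kinase gene Akt2 498 ± 78.7 CPM on day 6 and 386 ± 59.5 CPM on chow. Their log2 changes were -0.29 ± 0.12, -0.06 ± 0.23 and 0.37 ± 0.13, with adjusted p = 0.132, 0.908 and 0.106 by edgeR and Benjamini-Hochberg.

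In the autophagy list the median log2 change was 0.10, or -0.03 with library size only. Of its 27 measured genes 3 rose, against 1.99% of all genes, and 0 fell. Beside Trp53inp2 these were Map1lc3a, one of the LC3 genes, and Ulk2, a kinase that starts autophagosome formation. Map1lc3a had 148, 193, 178 and 161 CPM on day 6, against 122, 124, 121 and 96.8 CPM on chow. The lowest chow value was in replicate 4. Ulk2 had 106, 119, 119 and 119.7 CPM on day 6, against 88.5, 94.4, 96.1 and 90.6 CPM on chow, a narrow range in each group. The log2 changes were 0.56 ± 0.11 for Map1lc3a and 0.33 ± 0.07 for Ulk2 (adjusted p = 0.0266 and 0.0317 by edgeR quasi-likelihood and Benjamini-Hochberg). Without chow replicate 4 Trp53inp2 alone of the 3 kept its call. RNA levels do not measure autophagic flux.

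Of 24 measured genes of fatty acid and ketone oxidation 12 had groups that did not overlap, against 11.9% of all genes. The median log2 change was 0.31, and 4 genes rose and 0 fell. Beside Oxct1 these were Cpt2, which readies fatty acids for oxidation inside the mitochondrion, and the acyl-CoA dehydrogenase genes Acads and Acadl. Cpt2 had 157, 190.1, 213 and 161 CPM on day 6, against 124, 103, 138 and 83.7 CPM on chow. Acads had 171, 215, 209.7 and 177 CPM on day 6, against 138, 136, 155 and 101 CPM on chow. In both the lowest chow value was that of replicate 4, and the groups did not overlap. Cpt2 changed by 0.68 ± 0.17, Acads by 0.54 ± 0.13 and Acadl by 0.60 ± 0.16 (adjusted p = 0.0431, 0.0431 and 0.0470 by edgeR quasi-likelihood and Benjamini-Hochberg). Cpt1a, which admits fatty acids to the mitochondrion, had 162, 127, 156 and 155 CPM on day 6, against 106, 91.6, 106 and 103 CPM on chow. Its libraries were also separate, but its adjusted p of 0.0559 in the same edgeR test with Benjamini-Hochberg adjustment did not pass. Of these 4 called genes 0 kept their call without chow replicate 4, where the list median was 0.24. With library size only it was 0.18. The list mean, the average log2 distance of its genes above their chow mean, was 0.22, 0.38, 0.34 and 0.13 on day 6, against -0.04, 0.09, 0.19 and -0.24 on chow. Adipocyte markers had a list mean of 0.21, 0.42, 0.19 and -0.28 on day 6, against 0.03, 0.11, 0.16 and -0.30 on chow. In both lists replicate 4 was the lowest library of day 6 and of chow. Of 14 adipocyte markers Lep alone rose and 0 fell, 11 had a positive change, and the median was 0.20, or 0.07 without chow replicate 4. With library size only it was also 0.07. The part of adipocyte RNA in the rises of oxidation and lipolysis genes was not tested.

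In lipolysis and at the lipid droplet Mgll and Prkar2b rose among 21 measured genes, against 1.99% of all genes, and 0 fell. The list median was 0.33, or 0.20 with library size only. The list mean was 0.18, 0.35, 0.30 and 0.11 on day 6, against 0.02, 0.09, 0.13 and -0.24 on chow. It was again lowest in replicate 4 of each group. Mgll, the lipase that completes triglyceride breakdown, had 1958, 2359, 2218 and 1898 CPM on day 6, against 1524, 1446, 1447 and 1159 CPM on chow. Prkar2b, a regulatory subunit of protein kinase A, changed by 0.58 ± 0.15, and Mgll by 0.60 ± 0.14. The lipase gene Pnpla2 averaged 2139 ± 633 CPM on day 6 and 1873 ± 523 CPM on chow and Lipe 2017 ± 293 CPM on day 6 and 1797 ± 338 CPM on chow (SD, n = 4 each), and neither was called. Of 30 genes of fatty acid uptake and triglyceride synthesis 2 rose, against 1.99% of all genes. They were the lipoprotein receptor gene Vldlr (0.65 ± 0.14) and the fatty acid binding protein gene Fabp5 (1.27 ± 0.32). The list median was 0.16, or 0.03 with library size only.

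Among 23 genes of fatty acid synthesis and desaturation 0 rose and 1 fell, Tkt, a transketolase of the pentose phosphate pathway. Tkt had 566, 642, 974.9 and 625 CPM on day 6, against 1838, 1274, 1085 and 1210.1 CPM on chow. Day 6 replicate 3 came closest to chow. Tkt changed by -0.95 ± 0.22 (SE; adjusted p = 0.0364 by edgeR quasi-likelihood and Benjamini-Hochberg). Fasn, the fatty acid synthase, had 4427, 3846, 11643 and 6689.7 CPM on day 6, against 15407, 6751, 8451 and 7269 CPM on chow. These values overlapped widely, and its log2 change was -0.51 ± 0.47 without a call. Pdk1, a kinase that switches off pyruvate dehydrogenase, fell by 0.59 ± 0.16 on the log2 scale, the 1 called gene of 27 of the citrate cycle and pyruvate entry. It lost its call in all 8 fits that left out a compared library.

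Mitochondrial and sterol genes leaned upward with few or no calls. Of 63 nuclear genes of the respiratory chain 58 lay above 0, at a median of 0.16, but Ndufb3 (0.59 ± 0.14) alone rose and 0 fell. Of all genes tested 48.8% had a positive change and 1.99% were called higher. The list mean was -0.19 in chow replicate 4 and 0.04 to 0.08 in the other chow libraries, and the list median without it was 0.10. With library size only it was 0.04. Of 25 genes of cholesterol synthesis and uptake 24 lay above 0, at a median of 0.47, and edgeR called 0 (9 at an unadjusted p under 0.05) and DESeq2 4. Insig1, a sterol-responsive regulator, had 194, 253, 585 and 469.7 CPM on day 6, against 208, 85.8, 120.1 and 77.2 CPM on chow. Day 6 replicates 3 and 4 were high, day 6 replicates 1 and 2 lay nearer to chow, and chow replicate 1 overlapped them. The edgeR quasi-likelihood Benjamini-Hochberg adjusted p was 0.0604 for Insig1 and 0.0682 for the synthesis gene Hmgcs1.

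Genes known to mark growing fat pads included 6 rises and 0 falls among 18 measured, with a median of 0.44. Lep, the gene of the satiety hormone leptin, had 927, 1399, 2187 and 2535 CPM on day 6, against 903, 547, 374 and 726 CPM on chow. Day 6 replicate 1 was level with the highest chow library, and the other day 6 libraries lay above all of chow. Mest, an imprinted gene that rises in enlarging fat, had 391, 131, 256 and 478 CPM on day 6, against 98.1, 76.1, 67.3 and 101 CPM on chow. Replicate 2 was the lowest of day 6 and still above chow. Lep changed by 1.47 ± 0.32 (SE; adjusted p = 0.0297 by edgeR quasi-likelihood and Benjamini-Hochberg) and Mest by 1.87 ± 0.37 (SE; adjusted p = 0.0266 by edgeR quasi-likelihood and Benjamini-Hochberg). Cav1, the coat protein of caveolae, had 4090.0, 4178, 4302 and 4086 CPM on day 6, against 3506, 2749, 3149 and 2666 CPM on chow, and changed by 0.46 ± 0.12. Vldlr and the natriuretic peptide receptor gene Npr3 (1.06 ± 0.29) were the other members beside Ehd2. Without chow replicate 4 Ehd2 alone kept its call, and the list median was 0.38.

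Of 12 tested thermogenic genes 3 rose, each with few reads, and 0 fell, with a median of -0.06. Dio2, which activates thyroid hormone, had 0.575, 2.96, 5.86 and 4.93 CPM on day 6, against 0.640, 0, 0.405 and 0.530 CPM on chow. Cox7a1, a subunit of the respiratory chain in heart, muscle and brown fat, had 2.41, 4.703, 5.21 and 7.19 CPM on day 6, against 1.16, 1.74, 1.19 and 1.402 CPM on chow. Otop1, a proton channel gene, had 0.651, 0.711, 1.58 and 6.56 CPM on day 6, against 0.407, 0.232, 0.607 and 0.218 CPM on chow. Otop1 was high in day 6 replicate 4 alone, and Dio2 in day 6 replicate 1 was within the chow range. Ucp1, the uncoupling protein of brown fat, did not pass the filter on low counts. Of 23 adipogenic transcription factor genes Zfp423, known to commit cells to the fat lineage, alone rose, by 0.57 ± 0.11 (SE; adjusted p = 0.0244 by edgeR quasi-likelihood and Benjamini-Hochberg). Pparg, the central fat cell factor, averaged 261 ± 48.1 CPM on day 6 and 242 ± 49.8 CPM on chow (SD, n = 4 each) and was not called.

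Collagens of fibrils and of the adipocyte surround were among the rises. Of 17 fibrillar and beaded collagen genes 6 rose and 0 fell, or 3 rose with library size only, and the median log2 change was 0.82. Col6a2, of the beaded collagen VI that surrounds adipocytes, had 465, 930.3, 823 and 1329 CPM on day 6, against 422, 327, 297 and 389 CPM on chow. Replicate 4 was highest and replicate 1 lowest on day 6, and replicate 1 lay just above the chow libraries. Col6a2 changed by 1.31 ± 0.28 (SE; adjusted p = 0.0297 by edgeR quasi-likelihood and Benjamini-Hochberg), Col6a1 by 1.04 ± 0.26 and Col6a3 by 1.19 ± 0.31. Col5a2, of fibrillar collagen V, had 314, 359, 299 and 424 CPM on day 6, against 213, 205, 211 and 188 CPM on chow. Its day 6 values were closer together, and it changed by 0.77 ± 0.15 (SE; adjusted p = 0.0244 by edgeR quasi-likelihood and Benjamini-Hochberg). Col5a1 and Col3a1 were the other called members, while Col1a1, the main collagen of connective tissue, averaged 428 ± 117 CPM on day 6 and 279 ± 51.99 CPM on chow (SD, n = 4 each) and was not called. Without day 6 replicate 4 the list median was 0.67 and 0 members were called.

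Basement membrane genes included 5 rises and 0 falls among 20, with 10 positive and 10 negative changes and a median of 0.02, or -0.11 with library size only. Sparc, a collagen-binding matrix protein, had 3486, 5561, 3896 and 6039.6 CPM on day 6, against 2699, 2315, 2762 and 2267 CPM on chow. Replicates 2 and 4 were the high libraries of day 6. Sparc changed by 0.92 ± 0.20 (SE; adjusted p = 0.0297 by edgeR quasi-likelihood and Benjamini-Hochberg), Col4a1 by 0.85 ± 0.23, Col4a2 by 0.90 ± 0.23, the laminin gene Lamb3 by 0.85 ± 0.20 and the linker gene Nid1 by 0.53 ± 0.13. Among 26 genes of collagen processing Loxl1, a collagen and elastin crosslinking enzyme (0.65 ± 0.13), and Adamts2, a procollagen peptidase (0.65 ± 0.18), rose and 0 fell. For comparison, 1.99% of all genes were called higher. Of 24 matrix glycoprotein and proteoglycan genes edgeR called 0 (7 at an unadjusted p under 0.05) and DESeq2 4. Dcn, the proteoglycan decorin, had 1350.5, 782, 682 and 605 CPM on day 6, against 1539.7, 1483, 1654 and 1290.3 CPM on chow, with day 6 replicate 1 inside the chow range. The endothelial list, another source of basement membrane RNA, had a mean of 0.73 in day 6 replicate 4 and -0.11 to 0.13 in the other day 6 libraries, against -0.29 to 0.16 on chow. The summed level of that list was 1684 to 3113 CPM on day 6 and 1516 to 1990 CPM on chow, and 1 of its 20 genes, Ramp2, was called. The part of endothelial RNA in the matrix rises was not tested.

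**Figure D3:**
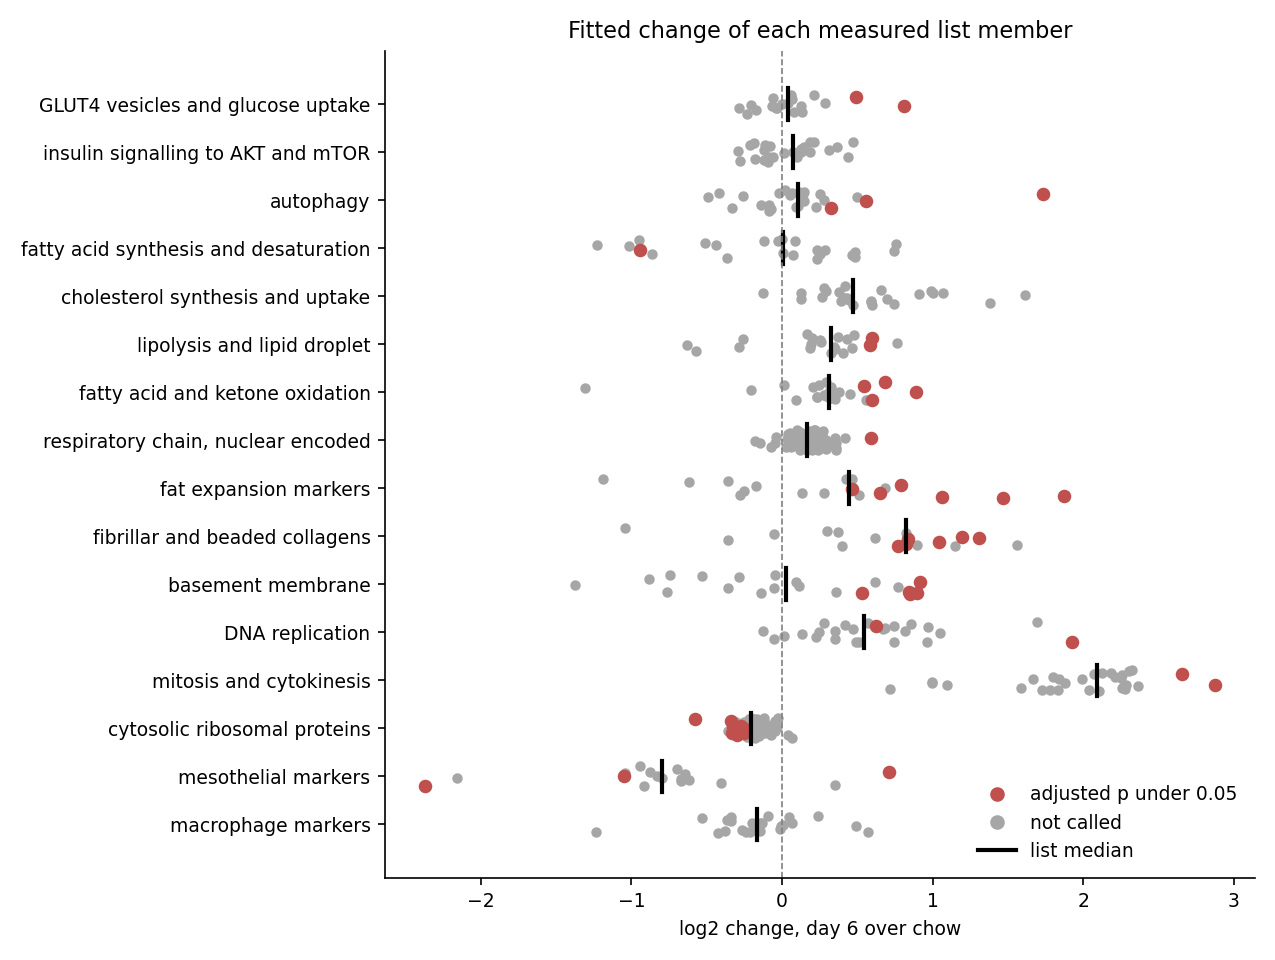
Fitted log2 change (horizontal axis, day 6 over chow) of each measured gene in 16 lists. Red points were called at an adjusted p under 0.05, grey points were not, and black bars are list medians. Mitosis genes lie right of 0 with 2 of 30 called, and ribosomal protein genes form a narrow band left of 0 with 10 of 72 called.

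All 30 measured genes of mitosis changed in the positive direction, 2.09 at the median on the log2 scale, and 2 of them, Pbk and Nuf2, rose past the threshold. Pbk, a kinase of dividing cells, had 0.958, 1.94, 3.07 and 8.98 CPM on day 6, against 0.407, 0.232, 0.785 and 0.436 CPM on chow. Nuf2, a kinetochore protein that attaches chromosomes to the spindle, had 1.23, 1.502, 2.98 and 10.4 CPM on day 6, against 0.640, 0.465, 0.987 and 0.374 CPM on chow. Day 6 replicate 4 was far the highest library for both genes, and all day 6 libraries lay above chow. Pbk changed by 2.88 ± 0.67 (SE; adjusted p = 0.0366 by edgeR quasi-likelihood and Benjamini-Hochberg) and Nuf2 by 2.65 ± 0.70 (SE; adjusted p = 0.0444 by edgeR quasi-likelihood and Benjamini-Hochberg). Mki67, the common marker of proliferation, had 15.7, 21.5, 35.7 and 123 CPM on day 6, against 10.3, 4.65, 15.9 and 8.32 CPM on chow, overlapped at day 6 replicate 1, and was not called (adjusted p = 0.0559 by edgeR quasi-likelihood and Benjamini-Hochberg). DESeq2 called 23 of the 30 genes, and 29 had an unadjusted p under 0.05 in the edgeR test.

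The mitosis list mean was 0.44, 1.04, 1.40 and 3.25 on day 6, against 0.04, -0.56, 0.45 and 0.07 on chow. Day 6 replicates 2, 3 and 4 lay above all chow libraries, and replicate 1 was within the chow range. Without day 6 replicate 4 the list median was 0.98 and 0 members were called by edgeR. Of 26 DNA replication genes Uhrf1 (1.92 ± 0.52), which keeps methylation through replication, and Cdc45 (0.62 ± 0.17), of the replicative helicase, rose and 0 fell. For comparison, 1.99% of all genes were called higher. The list median was 0.54, or 0.20 without day 6 replicate 4.

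Promoters of many mitosis genes are known to carry a CCAAT box and the cell cycle element TTTGAA. RefSeq promoters (GRCm38.p6) were available for 24 of the 30 genes, in 25 windows of 250 bases before the start. On either strand CCAAT stood in 72% of these windows, TTTGAA in 32% and both in 28%, against 33.8%, 16% and 5.55% of 32851 promoter windows in the table. For DNA replication genes the shares were 64%, 12% and 12%, and for ribosomal protein genes 31.7%, 3.33% and 0%. Nuf2 had neither motif in its window, which says nothing about the factors that bind there. The windows of the 3 list genes with the largest fitted change among those holding both motifs are given here, 5′ to 3′ on the gene's strand and ending 1 base before the start, with every match to either motif on either strand in capitals. The reverse complements are ATTGG and TTCAAA, and no matches overlap in these windows. The window of Mki67 lies at chr7:135716380-135716629 on the minus strand, that of Cdk1, the kinase of mitotic entry, at chr10:69352913-69353162 on the minus strand and that of Top2a, which untangles chromosomes, at chr11:99024190-99024439 on the minus strand.
Mki67: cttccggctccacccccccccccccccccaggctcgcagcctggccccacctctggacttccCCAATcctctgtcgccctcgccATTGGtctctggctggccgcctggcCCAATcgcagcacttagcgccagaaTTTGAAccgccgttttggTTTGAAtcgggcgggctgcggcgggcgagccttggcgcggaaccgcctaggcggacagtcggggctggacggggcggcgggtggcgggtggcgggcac
Cdk1: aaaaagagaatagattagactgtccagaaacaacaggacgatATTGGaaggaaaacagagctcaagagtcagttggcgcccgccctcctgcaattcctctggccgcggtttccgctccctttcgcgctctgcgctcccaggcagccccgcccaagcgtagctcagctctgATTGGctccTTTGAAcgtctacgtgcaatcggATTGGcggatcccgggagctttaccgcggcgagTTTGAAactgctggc
Top2a: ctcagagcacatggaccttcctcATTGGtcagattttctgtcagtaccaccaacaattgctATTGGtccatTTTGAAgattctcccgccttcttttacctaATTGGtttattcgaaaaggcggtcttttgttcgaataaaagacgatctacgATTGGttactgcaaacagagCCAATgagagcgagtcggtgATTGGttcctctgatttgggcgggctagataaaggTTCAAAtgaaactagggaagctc

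The genes of these windows moved in the same libraries. Cdk1 had 2.299, 3.24, 4.65 and 22.03 CPM on day 6, against 1.45, 0.930, 2.45 and 1.56 CPM on chow. Top2a had 8.43, 11.97, 17.2 and 68.7 CPM on day 6, against 5.12, 2.32, 8.15 and 5.61 CPM on chow. In each of the 3 genes day 6 replicate 4 was the highest of the 8 libraries and day 6 replicate 1 the lowest of its group, the order seen for Pbk and Nuf2. Cdk1 changed by 2.27 ± 0.70 (SE; adjusted p = 0.0691 by edgeR quasi-likelihood and Benjamini-Hochberg) and Top2a by 2.26 ± 0.66 (SE; adjusted p = 0.0605 by edgeR quasi-likelihood and Benjamini-Hochberg), so neither passed the threshold.

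Ribosomal protein genes were lower on day 6 by small amounts. Of 72 measured genes 10 fell, against 1.46% of all genes, and 0 rose. Of the 72 genes 70 had a negative change, and the median was -0.21. In 45 of them the day 6 libraries lay wholly below the chow libraries, while 11.9% of all genes were separate in either direction. Rps27 had 139, 125, 110.2 and 105 CPM on day 6, against 171, 194, 169 and 183 CPM on chow. Rpl23 had 206, 204, 209 and 206 CPM on day 6, against 239.7, 278, 239.6 and 258 CPM on chow. For Rpl23 the day 6 libraries were almost level, and for both genes all lay below chow. Rps27 changed by -0.58 ± 0.11 (SE; adjusted p = 0.0244 by edgeR quasi-likelihood and Benjamini-Hochberg) and Rpl23 by -0.30 ± 0.06 (SE; adjusted p = 0.0297 by edgeR quasi-likelihood and Benjamini-Hochberg). The list mean was -0.14, -0.19, -0.20 and -0.27 on day 6, against 0.02, 0.04, -0.03 and -0.03 on chow. With library size only 41 fell, and DESeq2 called 34. Reads of ribosomal protein genes can be shared with their processed pseudogenes, so single values are uncertain. Of 22 genes of ribosome biogenesis edgeR called 0 (5 at an unadjusted p under 0.05) and DESeq2 2, with a median of 0.08, or -0.05 with library size only.

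Mesothelial cells form the outer lining of the pad. Of 17 measured mesothelial markers 2 fell, 1 rose and 15 had a negative change, with a median of -0.80. In 11 of them the day 6 libraries lay wholly below chow, while 11.9% of all genes were separate in either direction. Rspo1, a secreted activator of Wnt signalling, had 22.95, 21.7, 24 and 12.6 CPM on day 6, against 32.5, 43.01, 33.9 and 57.8 CPM on chow. Krt18, a keratin of simple epithelia, had 3.104, 3.16, 2.698 and 1.38 CPM on day 6, against 5.06, 6.63, 4.78 and 36.4 CPM on chow. Chow replicate 4 was highest in both genes and far above the rest for Krt18, whose adjusted p without it was 0.245 in the same edgeR test with Benjamini-Hochberg adjustment. Rspo1 changed by -1.05 ± 0.24 (SE; adjusted p = 0.0332 by edgeR quasi-likelihood and Benjamini-Hochberg). Igfbp5, which other stromal cells also express, rose by 0.71 ± 0.18. Msln and Upk3b, more restricted markers, had 34.2, 47.1, 58.5 and 36.2 CPM and 99.4, 92.4, 111 and 60.3 CPM on day 6, against 60.5, 82.1, 61.7 and 65.4 CPM and 139, 164, 167 and 108 CPM on chow, and were not called. The list mean was -0.58, -0.59, -0.59 and -1.19 on day 6, against -0.20, 0.13, -0.07 and 0.14 on chow, so the groups were separate, and the median without chow replicate 4 was also -0.80. The summed level of the list was 948.2 to 1168 CPM on day 6 and 1036 to 1166 CPM on chow.

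Among the largest falls, most of the chow level lay in 1 library. Fermt1, a focal adhesion gene of epithelia, had 1 read in all day 6 libraries and 1039 on chow, a ratio of 1003 with a 95% counting interval of 179.7 to 39670. Of those reads nearly all came from chow replicate 4, at 0.116, 0.349, 0.0759 and 32.1 CPM on chow. Epcam, an adhesion molecule of epithelia, had 0.153, 0.0790, 0.0930 and 0 CPM on day 6, against 0.233, 0.116, 0.456 and 41.2 CPM on chow. Dsp, of desmosomes, had 0.766, 0.435, 0.651 and 0.910 CPM on day 6, against 0.931, 1.05, 1.44 and 59.3 CPM on chow. Lcn2, a secreted iron-scavenging protein, had 3.41, 3.44, 3.16 and 4.55 CPM on day 6, against 6.63, 8.602, 4.58 and 113 CPM on chow. Every one of these was called lower, and in each the other 3 chow libraries lay within a few CPM of day 6. Without chow replicate 4 the edgeR quasi-likelihood Benjamini-Hochberg adjusted p was 0.292 for Fermt1, 0.336 for Epcam, 0.361 for Dsp and 0.256 for Lcn2.

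Of 14 markers of epididymis and duct epithelium 4 were tested, and 3 of these were called lower. Their list mean was -2.05, -2.31, -2.32 and -2.91 on day 6, against -1.61, -1.59, -1.47 and 4.68 on chow. The summed level of all 14 was 1.70 to 4.37 CPM on day 6, against 4.60 to 205.9 CPM on chow. Of the defining epididymal genes Lcn5 and Lcn9 had 0 reads in both groups, and Lcn12, Crisp1, Adam7, Ros1 and Krt5 had 0 reads on day 6. The summed level of 10 testis markers was also highest in chow replicate 4, at 26.4 CPM. It was 0.177 to 0.698 CPM in the other chow libraries and 0.192 to 3.86 CPM on day 6. Tekt1 alone gave 10.9 CPM of the 26.4, and Tnp1 and Ldhc had 0 reads in every chow library. Tnp2, Pgk2 and Odf1 had 0 reads on day 6. Tekt1, also known from motile cilia, was the 1 testis marker tested and was not called. The part of these tissues in the falls was not tested beyond the fits without chow replicate 4.

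The immune lists held 0 to 2 called genes each, and over all genes tested the share called was 3.45%. With lists this small, these counts are not read as a result about immune genes. Of 24 macrophage markers 0 were called by edgeR or DESeq2, with 2 at an unadjusted p under 0.05, 18 negative changes and a median of -0.16. The list holds Lpl, the lipoprotein lipase gene that adipocytes also express, and its summed level ran the other way, at 15093, 17843, 18992 and 17415 CPM on day 6, against 14841, 12987, 13690.0 and 11052 CPM on chow, with no overlap. Adgre1, the F4/80 antigen, had 47.8, 40.98, 30.4 and 49.7 CPM on day 6, against 49.9, 51.1, 52.4 and 42.8 CPM on chow. The chemokine gene Ccl2 had 3.14, 10.6, 8.28 and 37.6 CPM on day 6, against 3.02, 6.51, 2.18 and 2.43 CPM on chow, high in day 6 replicate 4, and was not called (adjusted p = 0.0597 by edgeR quasi-likelihood and Benjamini-Hochberg). Il33, an alarmin cytokine, and Mif, a cytokine of many cells, fell by 1.02 ± 0.26 and 0.36 ± 0.09 on the log2 scale, the 2 called of 23 chemokine and cytokine genes. The neutrophil gene Retnlg fell by 2.03 ± 0.52 on the log2 scale and averaged 0.216 ± 0.138 CPM on day 6 and 0.959 ± 0.354 CPM on chow (SD, n = 4 each). In the B cell list 0 of 10 were called by edgeR or DESeq2, with 1 at an unadjusted p under 0.05, and its mean was 0.66, -1.16, -1.10 and -0.95 on day 6, against 0.55, -0.84, 0.31 and -0.02 on chow. The summed level of this list lay the other way, at 877, 1334, 859.9 and 725.8 CPM on day 6, against 687.3, 143.3, 210.6 and 458.2 CPM on chow, with no overlap. Of the 10 tested genes 9 had a negative change and 1 a positive one, at 1.41 on the log2 scale. The sum follows the most abundant members and does not show that the list rose. By the list mean day 6 replicate 1 was the one high library of its group, as it was for 6 mast cell markers with 0.21, -1.13, -1.02 and -1.05 on day 6, against 0.04, -0.48, 0.27 and 0.17 on chow.

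**Figure D4:**
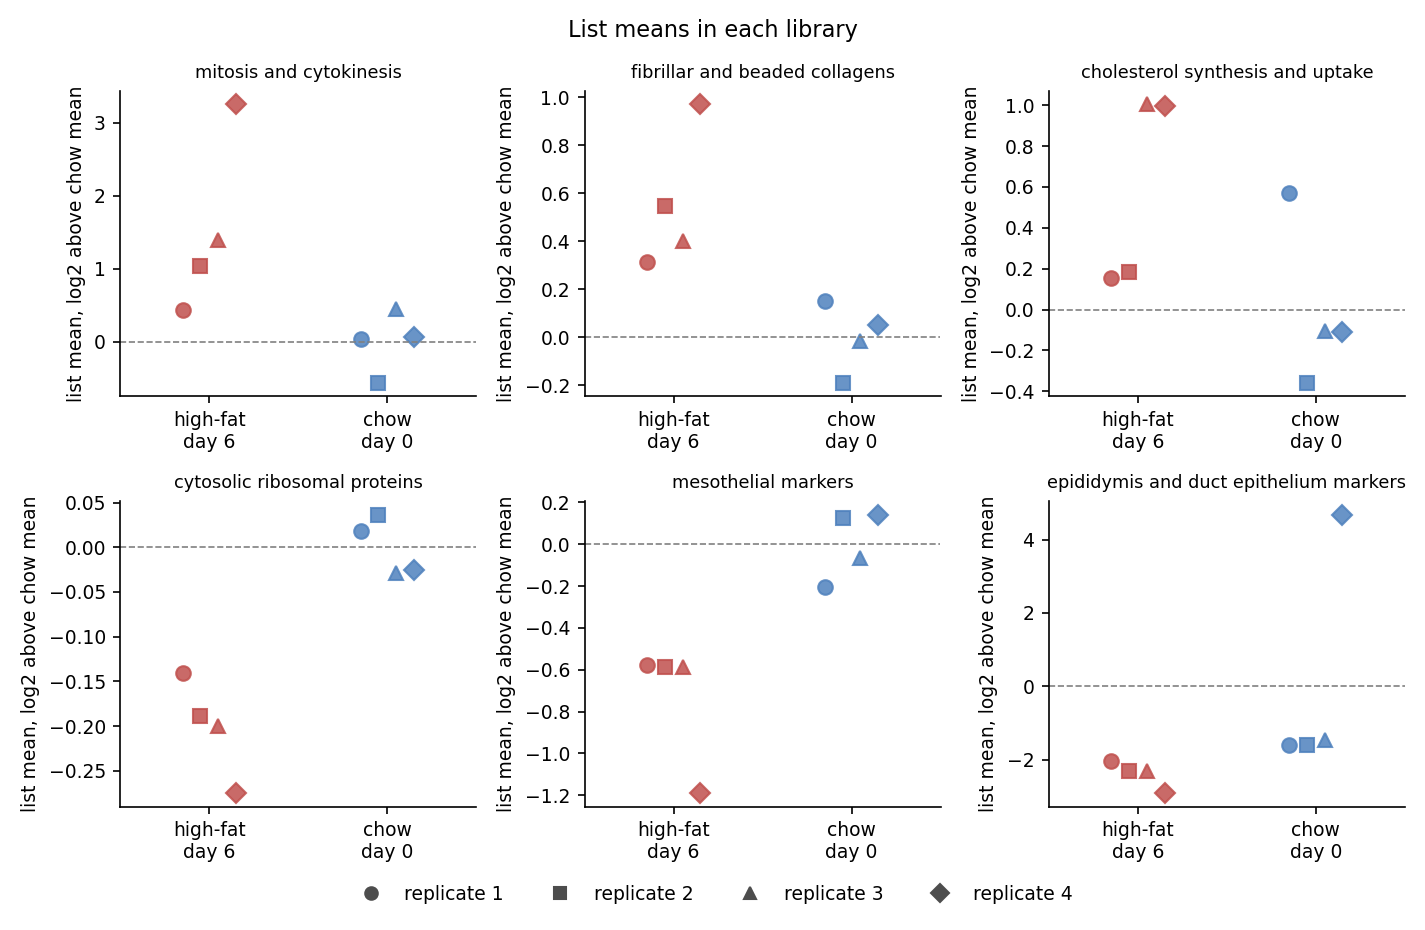
Mean of 6 gene lists in each library (vertical axis, average log2 CPM above the chow mean of each gene), high-fat day 6 in red left of chow in blue, with the marker shape giving the replicate number. Day 6 replicate 4 has the highest mitosis mean (3.25), and chow replicate 4 the highest mean of epididymis and duct markers (4.68).

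Genes known from liver included rises with few reads. Serpina1b, a plasma protease inhibitor, had 3.602, 1.46, 2.05 and 1.07 CPM on day 6, against 0.698, 0.349, 0.734 and 0.436 CPM on chow, and Mup3, a urinary pheromone carrier, had 5.29, 0.909, 0.837 and 1.73 CPM on day 6, against 0.233, 0, 0.607 and 0.218 CPM on chow. Day 6 replicate 1 was the highest library for both genes. Both were called higher, by 1.82 ± 0.37 and 2.79 ± 0.65, together with Serpina1a and Serpina1d. These families have near-identical copies whose reads could be split, so the values are uncertain. Without chow replicate 4 both lost their call. The liver list mean was 1.94, 0.87, 0.96 and 0.54 on day 6, against 0.17, 0.04, 0.27 and -0.48 on chow, with 3 of 6 measured genes called higher. The summed level of the list overlapped, at 909.5 to 4688 CPM on day 6, against 1702 to 7764 CPM on chow.

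Among the largest rises with separate groups, Bpifb6, of the lipid-binding BPI family, had 1.42, 1.46, 7.63 and 9.48 CPM on day 6, against 0.640, 0.465, 0.228 and 0.467 CPM on chow. Paqr9, of the progestin and adipoQ receptor family, had 63.5, 74.1, 135 and 132 CPM on day 6, against 42.7, 16.04, 26.7 and 16.9 CPM on chow. Pla2g2e, a secreted phospholipase, had 6.13, 13.3, 15.8 and 21.3 CPM on day 6, against 5.002, 1.98, 3.14 and 1.81 CPM on chow. Day 6 replicates 3 and 4 were the high libraries for Bpifb6 and Paqr9, and replicate 1 the lowest day 6 library for all 3. Bpifb6 changed by 3.52 ± 0.76, Paqr9 by 1.97 ± 0.38 and Pla2g2e by 2.23 ± 0.49 (adjusted p = 0.0297, 0.0244 and 0.0317 by edgeR quasi-likelihood and Benjamini-Hochberg).

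Antioxidant genes included 2 rises among 25, Sod3, the extracellular superoxide dismutase (0.59 ± 0.11), and Prdx5, a peroxiredoxin (0.32 ± 0.09). Single rises were Tpi1 of 20 glycolysis genes, Pcca of 20 for branched-chain amino acid breakdown, Atp6v0d1 of 25 for the lysosome, Sec24d of 26 for the secretory pathway and Stat2 of 22 for the interferon response. Their log2 changes were 0.84 ± 0.22, 0.50 ± 0.13, 0.33 ± 0.08, 0.50 ± 0.14 and 0.36 ± 0.10 in that order, and 0 genes of these 6 lists fell. Over all genes tested 1.99% were called higher, so 1 call in a list of 20 to 26 genes is not read as a result about that list. Of 26 genes of the TGF-beta and activin pathway and 20 immediate early genes 0 were called by edgeR or DESeq2, with 4 and 1 at an unadjusted p under 0.05 and medians of -0.15 and -0.02. Without chow replicate 4 each of these called genes lost its call, and of the called genes of the lists described here Trarg1, Trp53inp2 and Ehd2 kept theirs.

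Set against the neighbouring days, with no chow library in the contrast, day 6 gave 0 calls against day 4 (0.0% of genes, with 2492 at an unadjusted p under 0.05) and 0 calls against day 14 (0.0%, with 508) by edgeR. DESeq2 called 1 and 0. The mitosis genes had a lower level on day 6 than on day 4 in 30 of 30 by sign, with a median of -1.48, and a higher level than on day 14 in 30 of 30, with a median of 1.37. Mki67 had 15.7, 21.5, 35.7 and 123 CPM on day 6, against 21.4, 208, 175 and 175 CPM on day 4. Day 6 replicate 4 and day 4 replicate 1 were the libraries out of line with their groups. Without day 4 replicate 1 the count between these days was 737 of 15408 genes, 361 higher and 376 lower. Among these falls were 15 of 30 mitosis genes and 20 of 26 replication genes. Without day 6 replicate 4 the count was 414 of 15402 genes, 123 higher and 291 lower, with 29 mitosis and 14 replication genes among the falls. In neither fit was any gene of these 2 lists called higher on day 6. Leaving out any other single library of chow, day 4, day 6 or day 14 gave 0 calls. Both libraries were marked out by Mki67, a gene of the mitosis list, so these counts cannot show separately that the list fell.

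Mesothelial markers ran the opposite way between the same days, with 16 of 17 higher on day 6 than on day 4 by sign, a median of 0.81 and 0 calls by edgeR. Their list mean on day 4 was -1.71, -2.03, -0.80 and -1.59. Without day 6 replicate 4 the list had 3 called higher, and without day 4 replicate 1 it had 0. Over all genes 123 of 15402 were called higher in the first of these fits and 361 of 15408 in the second. Day 6 replicate 4 was the lowest day 6 library of this list, at a mean of -1.19, so the 3 calls cannot show separately that the list rose. Adipocyte markers were higher on day 6 than on day 4 in 13 of 14 by sign, with a median of 0.31. Of the 14 genes 4 were called higher without day 4 replicate 1 and 2 without day 6 replicate 4. Both left-out libraries were also out of line in these markers, with a list mean of 0.08 in day 4 replicate 1 and -0.28 in day 6 replicate 4. The other libraries had -0.52 to -0.42 on day 4 and 0.19 to 0.42 on day 6. These counts therefore cannot show separately that the markers rose.

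Levels of genes called higher in all 8 fits are set beside those of the other high-fat days, which share the same chow libraries. Krt79 averaged 4.199 CPM on chow and 14.96, 17.1, 16.9 and 13 CPM after 2, 4, 6 and 14 days of the diet. Trp53inp2 averaged 400.0 CPM on chow and 1045, 1652, 1329.7 and 1318 CPM after 2, 4, 6 and 14 days of the diet. Trarg1 averaged 338 CPM on chow and 698, 666, 593 and 683 CPM after 2, 4, 6 and 14 days of the diet. Day 6 differed from day 4 by -0.02 ± 0.21, -0.31 ± 0.20 and -0.17 ± 0.12 (log2, SE) for these 3 genes, and from day 14 by 0.39 ± 0.21, 0.01 ± 0.20 and -0.20 ± 0.12. Mki67 peaked on day 4, with 9.79 CPM on chow and 16.4, 145, 49.1 and 18.7 CPM after 2, 4, 6 and 14 days of the diet. Rps27 averaged 179 CPM on chow and 142, 109, 119.9 and 135 CPM after 2, 4, 6 and 14 days of the diet, lowest on day 4, and was below chow in the mean of each high-fat day.

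**Figure D5:**
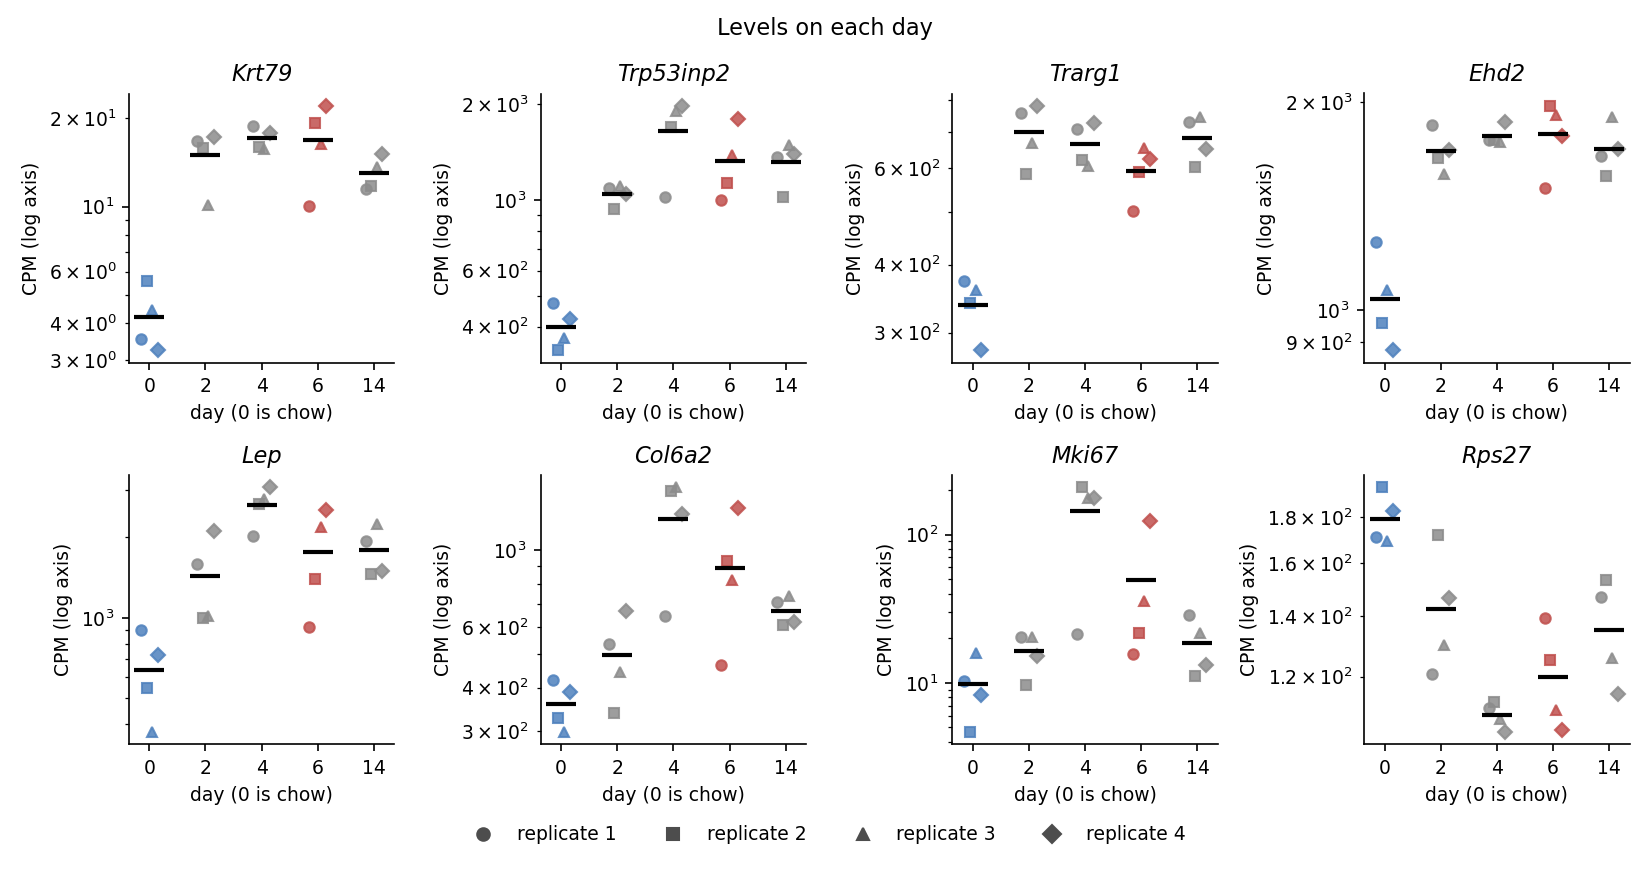
CPM of 8 genes in every library by day (horizontal axis, day 0 is chow, log vertical axes), chow in blue, day 6 in red and other high-fat days in grey, with black bars at the means of 4 libraries. All libraries of each high-fat day lie above all chow libraries for Krt79, Trp53inp2 and Trarg1, while Mki67 is high in 3 libraries of day 4 and in 1 of day 6.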

How the data were processed

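The authors deposited raw read counts per gene for all 20 libraries, and a check of the values found whole numbers. Per the labels' protocols, total RNA was extracted with an RNeasy Mini kit and made into libraries with a TruSeq RNA kit. CASAVA, STAR, featureCounts, limma and R 3.0 are listed, without their roles, per the submitters' processing notes. The build, annotation and strand setting are not given in the sources used here. Genes were kept with filterByExpr (minimum count 10, minimum total 15), scaled by TMM and fitted with edgeR 4.0.16 (glmQLFit, robust, glmQLFTest) in R 4.3.3, with all 20 libraries in 1 fit and 15 residual degrees of freedom. P-values were adjusted by Benjamini-Hochberg over 15254 genes and genes called at 0.05. They set each difference against a spread estimated from all 20 libraries, not from the compared libraries alone. The standard errors follow from the fitted change and its F value. CPM use the TMM-scaled library totals. DESeq2 1.42.0 and limma 3.58.1 were alternatives. Symbols were matched for 37607 of 39179 IDs. The fit was first tested on simulated data. Named genes are the 12 largest rises and 12 largest falls with separate groups, the 15 smallest p, those called in all 8 fits that leave out 1 compared library, up to 4 called members of each list, a fixed panel and library checks. Cav1, Npr3, Col3a1, Col4a1, Cdk1 and Top2a were added after their values were seen. The lists, and the choice of this comparison, were made with earlier results of these data known. The counting interval of a read ratio covers counting error only. Results of some genes are not reported here. Promoter windows came from a RefSeq table. Alternatives were the scaling, the filter, the tool, the groups fitted, a replicate block, the threshold and leaving out 1 library of chow, day 4, day 6 or day 14 at a time.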

Additional observations from a re-analysis of the deposited data

Results flagged for a closer look

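A library was marked where its gap to the nearest of its 4-library group divided by the group's range was above Dixon's 95% critical value. This held for 42 of 394 groups, 10.7%. Chance would mark about 1 in 20 of independent groups chosen without regard to their values. Here the groups share libraries, and some genes were named as library checks or as the largest falls. The 10.7% therefore cannot be set against that rate. Chow replicate 4 stood apart in 20 of the 42 marked groups. Its level there was 80.1 CPM for Cuzd1, 41.2 for Epcam, 32.1 for Fermt1, 59.3 for Dsp, 112.5 for Lcn2, 25.1 for Cldn10, 36.4 for Krt18, 35.0 for Ppp1r1b, 46.1 for Fndc7, 13.7 for Ttc16, 12.3 for Gprasp2, 12.4 for Ano9, 16.9 for Shank2, 13.8 for Rsph10b, 10.9 for Tekt1, 11.6 for Tcf7, 9.32 for Acot1 and 96.8 for Map1lc3a. It was the highest chow library for each of these genes except Map1lc3a, for which it was the lowest. Its list means were 4.68 for epididymis and duct markers and -0.19 for nuclear respiratory chain genes.

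Day 6 replicate 4 stood apart at 15.6 CPM for Pimreg, 6.56 for Otop1, 1.95 for Tubb3, 388.0 for Rgs5, 168 for Insr and 24.8 for Irs1. Its list means were -1.19 for mesothelial markers, -0.13 for branched-chain amino acid breakdown and -0.0093 for GLUT4 vesicles and glucose uptake. Day 6 replicate 1 stood apart at 227 CPM for Acadl, 816.5 for Col15a1, 0.0383 for Fermt1 with 1 read, 0.192 for Ppp1r1b, 183 for Prdx5, 419.9 for Tpi1 and 105.5 for Ulk2. Its list means were 0.66 for B cell markers and 0.21 for mast cell markers.

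The remaining marks were day 6 replicate 2 at 68.8 CPM for Acta1 and 540.3 for Sod3, day 6 replicate 3 at 58.4 CPM for Pdk1 and chow replicate 1 with a list mean of 0.0696 for the TGF-beta and activin pathway. No explanation of these values was tested.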

How the results depend on the processing

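Between day 6 and chow the 527 calls became 506 with DESeq2's size factors, 907 with library size only, 130 without a filter on low counts and 427 with a stricter one. DESeq2 called 1180, limma-voom 706 and limma-voom with quality weights 1045. A fit of only the compared groups called 0, with 3596 at an unadjusted p under 0.05. A threshold of 0.01 left 11 calls, and a log2 change above 1 left 210. Leaving out 1 compared library gave 7 to 1343 calls, and leaving out 1 library of day 4 or day 14 gave 199 to 817. Without chow replicate 4 and day 6 replicate 4 together 2 remained, and without chow replicate 4 and day 2 replicate 1 together 3. Both joint fits were chosen with earlier results of these data known, and the fits without a day 4 or day 14 library were added after seeing the data. The causes were not tested.

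Against day 4 the count was 0 in most settings. It was 1 with DESeq2, 2046 with quality weights, 737 without day 4 replicate 1, 414 without day 6 replicate 4 and 471 without chow replicate 4 and day 6 replicate 4 together, so leaving out 1 library gave 0 to 737. Against day 14 it was 0 in every setting run, with 508 at an unadjusted p under 0.05.

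Of 91 named genes that were called, 85 kept their call with DESeq2's size factors, 76 with library size only and 81 with DESeq2. The number was 66 with limma-voom, with or without quality weights, 69 with a stricter filter and 68 with a replicate block. It was 34 without a filter and 0 in a fit of only the compared groups. Calls were lost by 0 genes with DESeq2, 9 with a stricter filter and 88 with only the compared groups. The rest of the 91 had no adjusted p in those fits and so were not called there either. Leaving out 1 compared library kept 7 without chow replicate 4, 12, 16 and 19 without day 6 replicates 3, 4 and 2, and 52 to 87 without another. The joint fits without chow replicate 4 kept 2 and 3. The sign of 0 of the 91 changed in any setting run, and that of 16 of the 55 named genes that were not called did in at least 1. Same-numbered libraries of day 6 and chow correlated at -0.118, 0.164, -0.0663 and 0.069 in their deviations from group means, those of day 6 and day 4 at 0.516, -0.128, -0.084 and 0.249, and those of day 6 and day 14 at 0.0887, 0.184, 0.271 and -0.136. In no comparison were all 4 above 0.1, so the numbers were not taken to pair the libraries, although the replicate 1 libraries of day 6 and day 4 deviated together. A replicate block gave 409 calls, 331 of them among the 527. The totals of the compared libraries, 8279454 counts at the lowest, limit genes with few reads, such as Fermt1 and Cuzd1, to intervals rather than a fitted change. The fit also holds day 2 replicate 1, with 1916829 counts, and no day 2 library was left out on its own.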
